A study of Bombyx mori with 12 samples.

Results

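This account concerns the small RNA bound to Siwi after knockdown of Ago3 in BmN4 cells, an ovary-derived line of the silkworm Bombyx mori. The measured features were transposon entries, each a consensus name with a class and a superfamily. Entries were kept when their mean over the 6 small RNA libraries was at least 1 RPM (reads scaled to the size of the library), which left 1004 of 1716 listed entries. The whole series held 12 libraries of BmN4 cells. Cells with siRNA against Ago3 (Ago3KD, 2 libraries) were compared here with cells given siRNA against luciferase (LucKD, 2 libraries). Both groups were nucleofected with 500 pmol of siRNA, were transfected again, grew at 26 °C and were harvested on day 10. Flag-tagged Siwi was then precipitated, and its RNA was cut from a gel at 22 to 35 nt and read for 51 nt. The protein was thus a tagged one, and per the labels exogenous proteins were expressed from transfected plasmids. Siwi-bound small RNA after knockdown of Mael (MaelKD, 2 libraries) served for the estimate of spread and for a direct comparison. RNA after knockdown of Siwi (SiwiKD, 2 libraries) and RNA of LucKD cells (2 libraries) are set beside the small RNA at the end.

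PIWI-interacting RNAs (piRNAs) guide PIWI proteins to transposon transcripts. In the silkworm these proteins are Siwi and Ago3. In the ping-pong cycle Siwi, loaded with a piRNA, slices a transposon transcript, the fragment becomes a piRNA of Ago3, and slicing by Ago3 in turn yields a new piRNA for Siwi. In BmN4 cells Siwi is known to carry mostly antisense and Ago3 mostly sense piRNAs. Strand was not resolved in the values used here.

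Library totals were 2.61 and 2.18 M reads in Ago3KD, 1.76 to 4.81 M in LucKD and 1.84 to 3.02 M in MaelKD. A single read was worth 0.208 to 0.567 RPM. Of the 712 entries under the threshold, 251 were at 0 in all 6 libraries, and together they held at most 0.0210% of any library. The filter ran through a dense range, with 111 entries at a mean between 1 and 2 RPM and 107 at 0.5 to 1 RPM. The lowest mean inside it was 1.00 RPM and the highest outside it 0.997 RPM. Replicates correlated closely over the 1004 entries on the log2(RPM + 1) scale (Pearson's r = 0.989 in Ago3KD and 0.992 in LucKD, across entries, which are not independent). The level of Ago3 itself and markers of germ cells were not analysed here, since the tables list transposons only, so the knockdown was not checked. Values were relative to each library, so the amount of piRNA bound to Siwi per cell was not measured.

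After Ago3 knockdown the pool held less transposon small RNA, and that pool was narrower. Transposons filled 36.1 and 37.1% of the Ago3KD libraries, against 42.4 and 43.7% of the LucKD libraries. Summed over all entries, losses came to -13.2 percentage points of the library and gains to 6.74. Of those gains 78.9% came from 3 entries, the LTR retrotransposons Pao and Yamato and the unclassified entry BmTE_RM5-571. These 3 filled 15.05 and 15.9% of the Ago3KD libraries, against 9.89 and 10.4% of the LucKD libraries. At the other end, 4 Jockey entries (BmTE_RM6-18, BmTE_RM3-31, BmTE_RM1-25 and L1BM) filled 1.11 and 1.15% in Ago3KD, against 3.62 and 4.11% in LucKD, and made up 20.7% of the summed losses. The 10 most abundant entries of each library held 51.4 and 52.8% of its transposon reads in Ago3KD, against 38.9 and 40.5% in LucKD. The first 50% of the transposon reads came from the top 9 and 8 entries in Ago3KD, against the top 22 and 20 in LucKD. In each of these measures both Ago3KD libraries lay outside both LucKD libraries, but 2 against 2 allow no exact permutation p below 0.33 (two-sided). A read that matches several entries may count under each, so sums can exceed the reads themselves. Without Pao, transposons still filled less of the Ago3KD libraries, 28.3 and 28.6%, against 37.3 and 38.5% of the LucKD libraries.

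**Figure D1:**
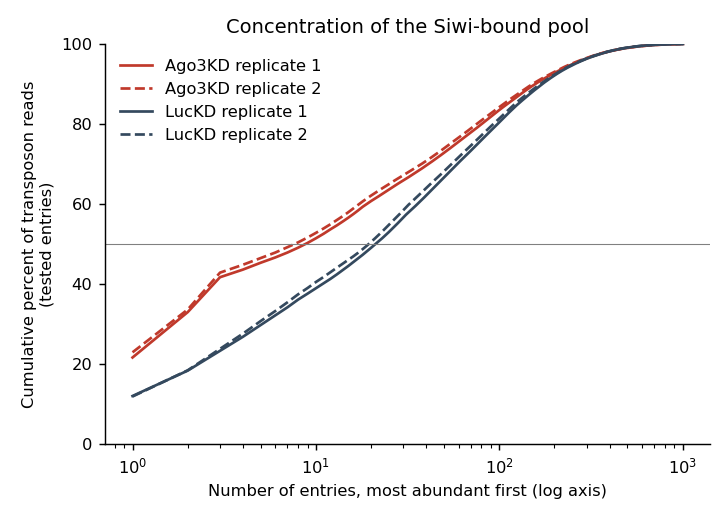
Cumulative percent of transposon reads (y axis, tested entries) against the number of entries, ordered from the most abundant in each library (x axis, log scale), with 1 line per library. Both Ago3KD lines pass 50% at 9 and 8 entries and both LucKD lines at 22 and 20.

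The classes did not share the loss evenly. LINE retrotransposons, which copy themselves at the target site without long terminal repeats, filled 4.07 and 4.10% of the Ago3KD libraries, against 9.05 and 9.64% of the LucKD libraries, 2.29 times less. DNA transposons, most of which move by excision, filled 4.39 and 4.39%, against 5.78 and 5.73%. Entries with no class filled 9.34 and 9.15%, against 10.2 and 10.4%. The LTR class alone among the 5 largest filled more, 17.8 and 18.9% in Ago3KD, against 16.7 and 17.2% in LucKD, a difference of 1.37 points that turned to -1.87 without the 10 most abundant entries. SINEs, short elements that borrow the enzymes of LINEs, filled 0.456 and 0.407%, against 0.485 and 0.497%. As shares of the transposon reads alone, SINEs and entries with no class were higher in Ago3KD by 0.0408 and 1.33 points. For every class in this paragraph the exact permutation p was 0.33, the smallest that the design allows.

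**Figure D2:**
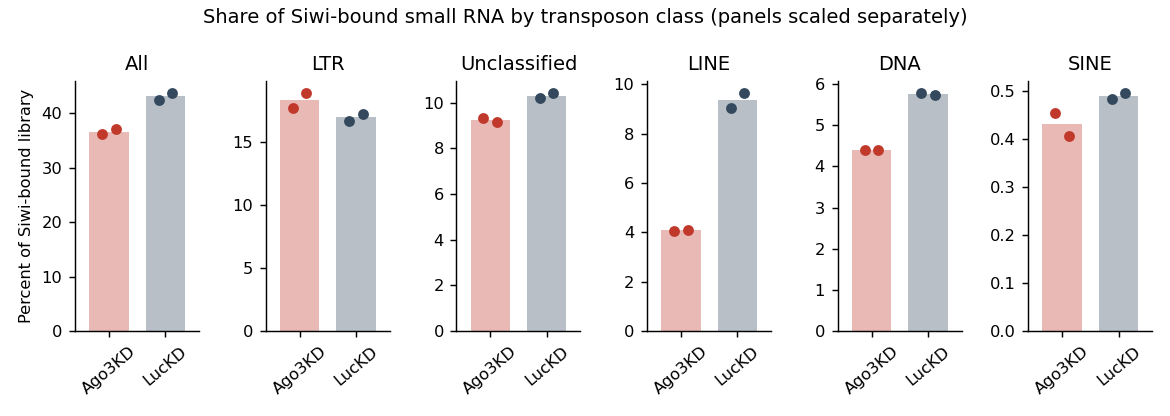
Percent of each Siwi-bound library (y axis, from 0, panels on separate scales) for all transposons and 5 classes, with bars for the mean of 2 libraries and points for the libraries. The LINE panel shows the widest relative gap, 4.07 and 4.10% in Ago3KD, against 9.05 and 9.64% in LucKD.

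Entry by entry, small RNA of 169 of the 1004 entries was higher in Ago3KD than in LucKD (16.8%) and that of 408 was lower (40.6%), by limma with Benjamini-Hochberg adjusted p under 0.05 on log2(RPM + 1), so that 57.5% were called either way. Among the rises 101 reached 2-fold (10.1%), 8 reached 4-fold and 2 reached 8-fold. Of the falls, 197 reached 2-fold (19.6%), 18 reached 4-fold and 1 reached 8-fold. The median change over all entries was -0.28. The split depended on the scaling: trimmed-mean (TMM) scaling moved the median to 0.01 and gave 262 rises and 295 falls. All 169 rises and 295 of the 408 falls were called the same way under the deposited and 3 other scalings. Calls made without any 1 of the 4 libraries compared included 85 of the 169 rises and 333 of the 408 falls. The labels do not state that replicate libraries are separate cultures, and the spread behind each p-value may therefore be technical.

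Falls were most frequent among the entries rich in Siwi-bound small RNA. Of 69 entries with a mean over 1000 RPM in the 6 libraries, 49 fell and 10 rose, and the median log2 change was -0.74 (-0.42 with TMM scaling). Between 100 and 1000 RPM, 155 of 225 fell and 25 rose (108 and 52 with TMM scaling). Between 10 and 100 RPM, 152 of 336 fell and 66 rose (115 and 104 with TMM scaling). The 374 entries between 1 and 10 RPM had 52 falls and 68 rises, with a median of 0.11 (31, 87 and 0.35 with TMM scaling). Fewer low entries were called either way: 254 of these 374 were not called, against 10 of the 69 over 1000 RPM. Low entries can pass the filter through 1 group alone, and the added 1 RPM shrinks their changes. RPM is not per length, so these bins order the entries by their reads and not by the density of piRNAs along them.

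**Figure D3:**
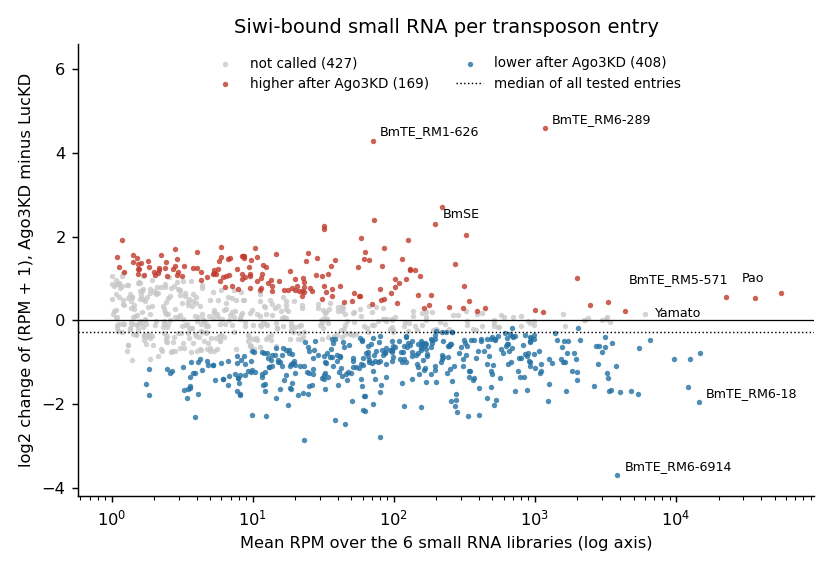
The log2 change of (RPM + 1), Ago3KD minus LucKD (y axis), against the mean RPM over the 6 small RNA libraries (x axis, log scale), 1 point per tested entry, coloured by the limma call. Of the 69 entries over 1000 RPM, 49 are lower and 10 higher, and the dotted line marks the median of all entries, -0.28.

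Among LINEs, 89 of 172 tested entries fell and 18 rose (median log2 change -0.61), or 73 falls, 29 rises and -0.31 with TMM scaling. Counts for each class and superfamily stand beside shares over all tested entries of 40.6% falls and 16.8% rises. With TMM scaling those shares were 29.4% and 26.1%. The Jockey superfamily, a clade of LINEs first described in Drosophila, had the lowest median among the superfamilies with at least 5 tested entries, -1.16 (-0.85 with TMM scaling), and 13 of its 19 entries fell. BmTE_RM6-18 had 4034 and 4046 RPM in Ago3KD, against 14866 and 16580.00 RPM in LucKD (log2 change ± standard error -1.96 ± 0.07, limma adjusted p = 2.15e-24). L1BM had 1045 and 1131 RPM in Ago3KD, against 3148 and 3964 RPM in LucKD, and BmTE_RM1-25 had 1813 and 1865 RPM in Ago3KD, against 5781 and 6799 RPM in LucKD. BmTE_RM3-31 had 4249 and 4457 RPM in Ago3KD, against 12455 and 13761 RPM in LucKD. The log2 changes of the last 3 were -1.70, -1.77 and -1.59. Related consensus entries may share reads, so they need not be independent. The single Jockey rise among 19 entries was BmTE_RM1-303, with 3.06 and 1.84 RPM in Ago3KD, against 0.416 and 0 RPM in LucKD, named after its values were seen. That rise was lost when single libraries were left out.

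All 3 tested entries of BMC1, a LINE family of the silkworm, fell as well. L1Bm had 1083 and 1100.3 RPM in Ago3KD, against 3319.9 and 3132 RPM in LucKD (log2 change -1.56 ± 0.07). BMC1-Abe had 833 and 882 RPM in Ago3KD, against 1971 and 2112 RPM in LucKD, and Supermite-BMC1 had 59.0 and 58.8 RPM in Ago3KD, against 132 and 136 RPM in LucKD. The groups did not overlap for any of these.

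Elements that insert into ribosomal RNA genes were lower. R1Bm, of the R1 clade, had 722 and 742 RPM in Ago3KD, against 2387 and 2347 RPM in LucKD (log2 change -1.69 ± 0.08, limma adjusted p = 7.52e-22). R2Bm, which inserts at another site of the same genes, had 1467 and 1093 RPM in Ago3KD, against 2141 and 2220.00 RPM in LucKD (-0.78 ± 0.10). Its 2 Ago3KD libraries lay further apart than those of R1Bm. The R1 relative R1-3_BM had 863 and 907 RPM in Ago3KD, against 2221 and 1931 RPM in LucKD. Within the R1 superfamily 6 of 12 entries fell and 4 rose.

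Elements that insert into the telomeric repeats of the silkworm went both ways. SART1 had 749.6 and 868 RPM in Ago3KD, against 1423 and 1418 RPM in LucKD (-0.81 ± 0.08), and SARTBm3 had 279 and 289 RPM in Ago3KD, against 429.7 and 407 RPM in LucKD. In contrast TRAS1 had 13.8 and 19.3 RPM in Ago3KD, against 6.66 and 3.97 RPM in LucKD (1.49 ± 0.34) and TRAS3 had 62.0 and 74.4 RPM in Ago3KD, against 54.1 and 44.2 RPM in LucKD, a rise of 0.47 that was lost when single libraries were left out. The partial entry TRASY_partial had 6.51 and 5.51 RPM in Ago3KD, against 18.7 and 14.2 RPM in LucKD, a fall (-1.31) that was lost without LucKD replicate 1. Across the 5 entries 3 fell and 2 rose, and the rises were in entries with under 100 RPM in each of the 4 libraries. The R1-clade element HOPEBm2 also rose, with 39.8 and 42.3 RPM in Ago3KD, against 19.8 and 18.1 RPM in LucKD (1.08 ± 0.20).

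CR1-type LINEs mostly fell. In CR1-L2, 12 of 17 entries fell and none rose, in CR1-Zenon 5 of 9 fell and none rose, and in CR1 6 of 10 fell and 1, BmTE_RM1-373, rose. With TMM scaling these were 10 falls in CR1-L2, 3 falls and 1 rise in CR1-Zenon, and 5 falls and 1 rise in CR1. The rise of BmTE_RM1-373, named after its values were seen, was lost when single libraries were left out. The CR1-L2 entry BmTE_RM6-4101 had 493 and 497 RPM in Ago3KD, against 1998 and 1799.8 RPM in LucKD (-1.93 ± 0.08), and BmTE_RM1-217 had 115 and 114 RPM in Ago3KD, against 509.8 and 447 RPM in LucKD. Benkei, of the same superfamily, had 987 and 933 RPM in Ago3KD, against 1676 and 1608 RPM in LucKD. Of the Zenon clade, Bm5886_high-copy had 291 and 293 RPM in Ago3KD, against 571 and 640.2 RPM in LucKD. Both Daphne-clade elements fell by little, among them Takuya with 2122 and 2051 RPM in Ago3KD, against 2805 and 2716 RPM in LucKD, a fall of -0.40 that TMM scaling left at -0.08 and uncalled.

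RTE-type LINEs were divided. In the RTE superfamily 6 of 21 entries fell (28.6%) and 2 rose (9.5%), with a median of 0.08 (5 rises and 0.39 with TMM scaling). Of the 15 largest falls among entries of at least 10 RPM, 4 were RTE entries. That list was picked by the size of the change, and the share of RTE among all entries of at least 10 RPM is not given here. RTE-1_BM had 85.4 and 95.5 RPM in Ago3KD, against 408 and 417 RPM in LucKD (-2.18 ± 0.10). BmTE_RM1-103 had 4.98 and 4.59 RPM in Ago3KD, against 46.2 and 35.7 RPM in LucKD (-2.85 ± 0.25), and BmTE_RM5-195 had 10.7 and 11.0 RPM in Ago3KD, against 67.8 and 53.9 RPM in LucKD. RTE-3_BM went the other way, with 16.5 and 17.0 RPM in Ago3KD, against 7.91 and 3.40 RPM in LucKD (1.501 ± 0.33). In RTE-BovB, 10 of 30 entries fell (33.3%) and 5 rose (16.7%), or 6 and 6 with TMM scaling. The most abundant of them, BmTE_RM1-0, had 414 and 418 RPM in Ago3KD, against 160.4 and 167 RPM in LucKD (1.34 ± 0.10).

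I-type LINEs had 8 falls and 1 rise among 13 entries. I-2_BM had 356 and 367 RPM in Ago3KD, against 1212 and 1088 RPM in LucKD (-1.66 ± 0.08). In I-R1, 5 of 12 fell (41.7%) and 2 rose (16.7%), close to the shares over all tested entries (40.6% and 16.8%). Its entry BmTE_RM5-242 had 65.8 and 63.8 RPM in Ago3KD, against 312 and 327 RPM in LucKD (-2.28 ± 0.10). Dong, listed under R2-R4, had 515 and 483 RPM in Ago3KD, against 695 and 665 RPM in LucKD, a fall of -0.45 that was -0.13 and uncalled with TMM scaling.

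**Figure D4:**
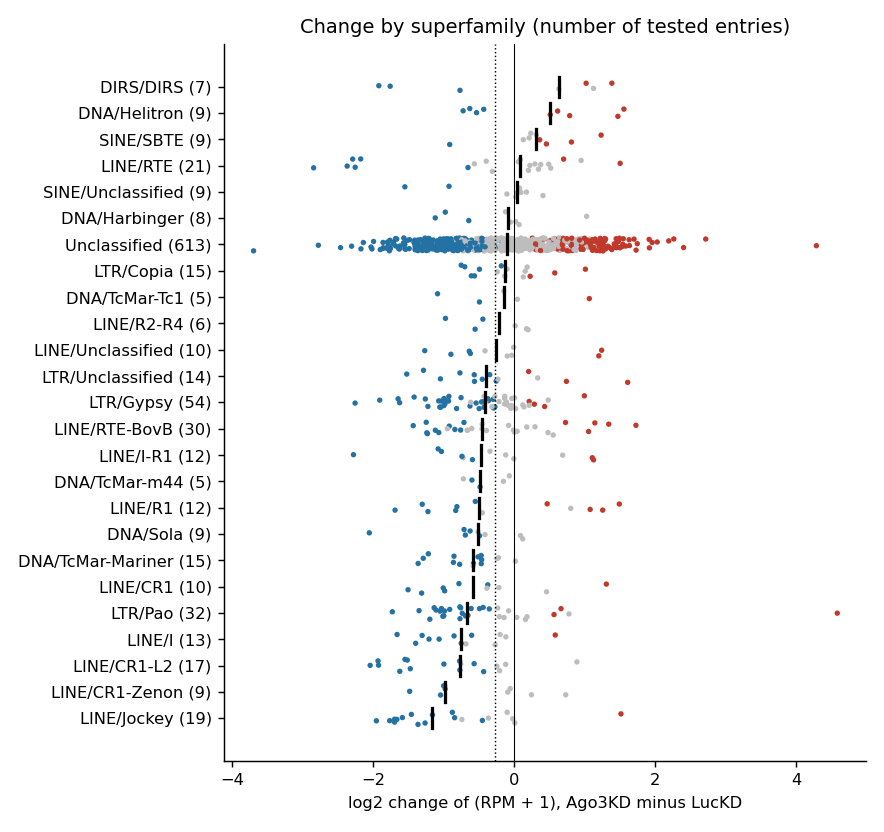
The log2 change of (RPM + 1), Ago3KD minus LucKD (x axis), of every tested entry in each superfamily with at least 5 tested entries (rows, numbers in brackets). Black bars are medians, red and blue points are entries called higher and lower, and the dotted line is the median of all entries. Jockey has the lowest median, -1.16, and DIRS the highest, 0.63.

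Among LTR retrotransposons, which carry long terminal repeats and resemble retroviruses, the 2 most abundant elements rose. Most tested entries of the class fell as deposited, but not with TMM scaling. Of 116 tested LTR entries 66 fell and 13 rose, with a median of -0.43 (-0.12 with TMM scaling, with 46 falls and 26 rises). Pao, the founding member of the Pao superfamily, had 78104 and 84959.6 RPM in Ago3KD, against 50961 and 51983 RPM in LucKD (log2 change 0.66 ± 0.07, limma adjusted p = 2.23e-10). Yamato had 31465 and 34120.4 RPM in Ago3KD, against 20975 and 23451 RPM in LucKD (0.56 ± 0.07). The entry BmTE_RM6-289, listed under Pao, had 2094 and 2301 RPM in Ago3KD, against 82.4 and 99.8 RPM in LucKD and rose most of all entries (4.58 ± 0.09, adjusted p = 4.41e-34). Those were the 3 rises among 32 Pao entries, of which 21 fell (-0.68 in the median). With TMM scaling 17 fell and 7 rose, with a median of -0.36.

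The falls within the Pao superfamily covered most of its other abundant members. Moriya_7603bp had 4485 and 5122 RPM in Ago3KD, against 8502 and 9641 RPM in LucKD (-0.92 ± 0.08), and Noguchi had 1462 and 1562 RPM in Ago3KD, against 3061 and 3131 RPM in LucKD (-1.03 ± 0.07). Kamikaze had 1849 and 1912 RPM in Ago3KD, against 3072 and 3309 RPM in LucKD, Kokubaru_6926bp had 911 and 809 RPM in Ago3KD, against 1815 and 1659.8 RPM in LucKD and Orochi had 745 and 669.6 RPM in Ago3KD, against 1216 and 1197 RPM in LucKD. The fall of Kaede, with 729.7 and 693 RPM in Ago3KD, against 1018 and 987 RPM in LucKD, was not called with TMM scaling (-0.17). YAMATO_BM, an entry named like Yamato, had 3330.3 and 3561 RPM in Ago3KD, against 3291 and 3436 RPM in LucKD, and its groups overlapped. It was not called as deposited (limma adjusted p = 0.719) but was called a rise with TMM scaling (0.36) and under both other scalings.

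Gypsy elements fell in 30 of 54 entries and rose in 4, with a median of -0.42 (20 falls, 10 rises and -0.10 with TMM scaling). BmRT3 had 4366 and 4439 RPM in Ago3KD, against 8139 and 8691 RPM in LucKD (-0.93 ± 0.07), and BmRT1 had 1374 and 1260.2 RPM in Ago3KD, against 3522 and 3536 RPM in LucKD (-1.42 ± 0.08). Of the Kabuki type, Suzuka_Kabuki_type had 224 and 234 RPM in Ago3KD, against 868 and 861 RPM in LucKD (-1.91 ± 0.09) and Kabuki, first found on the W chromosome, had 2546 and 2775 RPM in Ago3KD, against 3832 and 3914 RPM in LucKD (-0.54 ± 0.07). Suzuka_Kabuki_type and Kabuki thus differed in the size of their falls, though that difference was not tested. BmTE_RM1-552 had the largest Gypsy fall, with 101 and 93.2 RPM in Ago3KD, against 494 and 445 RPM in LucKD (-2.26 ± 0.10). The abundant element BmRT2 had 3506 and 3938 RPM in Ago3KD, against 3641 and 3779 RPM in LucKD, with overlapping groups (limma adjusted p = 0.981), but was called a rise with TMM scaling (0.32) and under both other scalings. BmRT12 had the largest rise, with 146 and 130.4 RPM in Ago3KD, against 69.7 and 68.0 RPM in LucKD (0.99 ± 0.13).

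Copia elements had 6 falls and 3 rises among 15 entries, with a median of -0.14, or 4 falls, 5 rises and 0.15 with TMM scaling. Otora had 70.8 and 64.8 RPM in Ago3KD, against 109 and 113 RPM in LucKD, and BmRT14 had 72.7 and 73.0 RPM in Ago3KD, against 49.1 and 48.2 RPM in LucKD. Of 14 LTR entries with no superfamily 9 fell and 3 rose, or 5 and 4 with TMM scaling. Nemawashi had 725 and 735 RPM in Ago3KD, against 2033 and 2181 RPM in LucKD (-1.53 ± 0.08), while BmRT25 had 36.4 and 48.2 RPM in Ago3KD, against 15.8 and 10.8 RPM in LucKD (1.61 ± 0.23).

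The tables list 7 LTR elements both as an internal part and as its terminal repeat, with both pieces tested. For LTR-2_BM the pieces moved apart: the internal part had 412 and 428 RPM in Ago3KD, against 791 and 954 RPM in LucKD, and the repeat had 103 and 107 RPM in Ago3KD, against 62.8 and 62.4 RPM in LucKD. The first passed as a fall (-1.05 ± 0.09) and the second as a rise (0.74 ± 0.14). The ratio of internal part to repeat was 3.98 and 4.00 in Ago3KD, against 12.6 and 15.3 in LucKD. For Gypsy-3_BM the ratio was 3.71 and 4.43, against 9.03 and 9.90, and for Gypsy-4_BM it was 1.17 and 1.10, against 2.12 and 2.44. Copia-2_BM had the same order, at 21.0 and 18.8, against 35.4 and 27.5. Gypsy-6_BM and Gypsy-1_BM had the opposite order, with ratios of 10.4 and 6.67, against 3.44 and 4.83, for Gypsy-6_BM. Copia-1_BM overlapped. No model was fitted to these ratios, so the differences between pieces were not tested.

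DNA transposons fell in 39 of 71 tested entries and rose in 9 (25 and 18 with TMM scaling). In the mariner superfamily 11 of 15 fell and none rose, or 7 and 1 with TMM scaling. Mariner-2_BM had 6191 and 6151 RPM in Ago3KD, against 10291 and 10846 RPM in LucKD (-0.78 ± 0.07), Mariner-7_BM had 402 and 402 RPM in Ago3KD, against 1078 and 999 RPM in LucKD (-1.37 ± 0.08), and Mariner-3_BM had 314 and 318 RPM in Ago3KD, against 775 and 704 RPM in LucKD (-1.22 ± 0.09). Bmmar6, another mariner, had 1061 and 1071 RPM in Ago3KD, against 1043 and 1065 RPM in LucKD, with overlapping groups. It was not called as deposited (limma adjusted p = 0.87) but was called a rise with TMM scaling (0.34) and under both other scalings. Some mariner falls rested on the scaling: Mariner-4_BM, with 3299.7 and 3586 RPM in Ago3KD, against 4719 and 4809.7 RPM in LucKD, was at -0.15 and uncalled with TMM scaling.

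The other DNA superfamilies went both ways. All 3 Transib entries fell, with a median of -1.38 (-1.06 with TMM scaling). In Sola 5 of 9 entries fell, and BmTE_RM6-8256 had 55.9 and 56.0 RPM in Ago3KD, against 252 and 222 RPM in LucKD (-2.06 ± 0.14). The Fot1-type entry BmTE_RM6-5534 had 85.0 and 69.3 RPM in Ago3KD, against 314 and 335 RPM in LucKD (-2.06 ± 0.12). Helitrons, which are thought to move by rolling-circle replication, had 5 rises and 4 falls among 9 entries, or 5 and 2 with TMM scaling. Helitron-1_BM, the most abundant of them, had 1426 and 1520.1 RPM in Ago3KD, against 2283 and 2282 RPM in LucKD (-0.63 ± 0.07). Helitron-N1C_BM and Helitron-N1_BM rose, with 211 and 201 RPM in Ago3KD, against 89.3 and 60.7 RPM in LucKD for the first (1.47 ± 0.14) and 283 and 259 RPM in Ago3KD, against 164 and 189 RPM in LucKD for the second (0.61 ± 0.11). BmpiggyBac-MER85, a piggyBac relative, had 6871 and 7294 RPM in Ago3KD, against 6271 and 6594 RPM in LucKD, which did not overlap but did not pass the test (adjusted p = 0.0932, and a rise with TMM scaling). Harbinger-N1_BM had 111 and 85.9 RPM in Ago3KD, against 213 and 214 RPM in LucKD (-1.12 ± 0.12).

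SINEs had more rises than falls, 6 against 3 among 20 tested entries, with a median of 0.19 (13 rises, 3 falls and 0.50 with TMM scaling). Bm1, the main SINE family of the silkworm, had 118 and 119 RPM in Ago3KD, against 49.9 and 45.9 RPM in LucKD (1.29 ± 0.14). Bm1-450bp had 181 and 189 RPM in Ago3KD, against 71.0 and 86.2 RPM in LucKD (1.23 ± 0.12) and Bm1modoki had 429.5 and 397 RPM in Ago3KD, against 339 and 268 RPM in LucKD. The falls were in Rinne, Amanoya and Nagisa. Rinne held more reads than any other SINE entry in all 4 libraries, with 1281 and 1169 RPM in Ago3KD, against 2277 and 2348 RPM in LucKD (-0.92 ± 0.08), and Nagisa had 20.7 and 19.3 RPM in Ago3KD, against 57.2 and 64.1 RPM in LucKD. The lower summed share of the SINEs in Ago3KD thus stood beside more rises than falls.

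**Figure D5:**
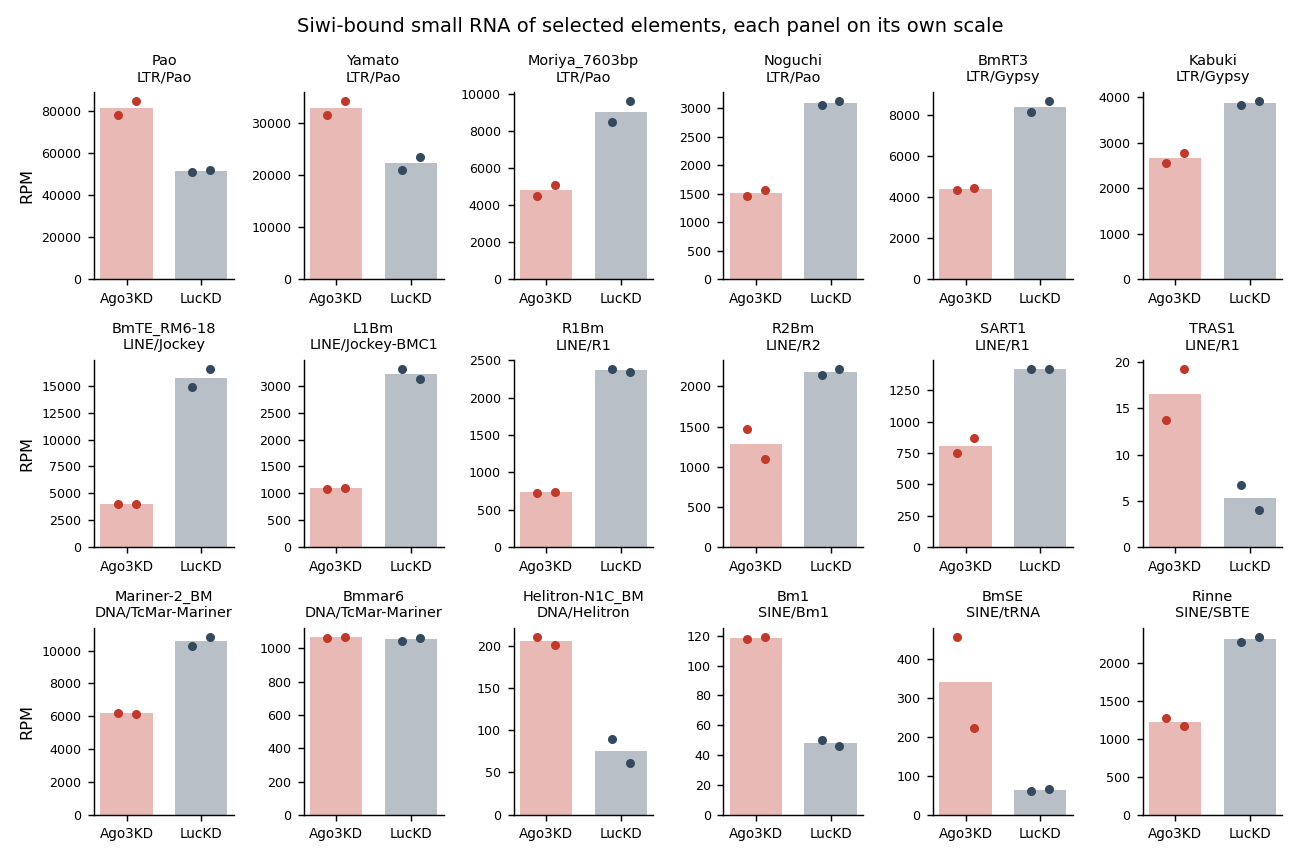
RPM (y axis, from 0, each panel on its own scale) of selected elements in the 2 Ago3KD and 2 LucKD libraries (points), with bars for the mean. Pao, Yamato, TRAS1, Helitron-N1C_BM, Bm1 and BmSE are higher in Ago3KD, Bmmar6 overlaps and the other elements are lower.

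BmSE, a SINE derived from a transfer RNA, had 457 and 223 RPM in Ago3KD, against 61.0 and 66.3 RPM in LucKD (2.31 ± 0.19). Its Ago3KD libraries lay 1.03 apart on the log2 scale, the widest gap among the 294 entries with a mean of at least 100 RPM. The unclassified entries BmTE_RM1-23 and BmTE_RM1-455 had the closest profiles to it over the 6 libraries after each entry's own mean was removed on the log2 scale (root mean square distances of 0.196 and 0.128). BmTE_RM1-23 had 509.9 and 265 RPM in Ago3KD, against 51.6 and 59.0 RPM in LucKD (2.72 ± 0.18). BmTE_RM1-455 had 72.0 and 40.4 RPM in Ago3KD, against 8.74 and 12.5 RPM in LucKD (2.26 ± 0.25). In MaelKD the same entries had 235 and 135 RPM for BmSE and 274 and 156 RPM for BmTE_RM1-23, again higher in the first library. Whether these entries count the same reads was not tested.

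Entries with no class made up 613 of the 1004, and 205 of them fell and 121 rose. Their median of -0.11 turned to 0.15 with TMM scaling, with 143 falls and 173 rises. BmTE_RM5-571, the most abundant, had 40920.00 and 39648 RPM in Ago3KD, against 26923 and 28578 RPM in LucKD (0.54 ± 0.08). BmTE_RM6-6914 fell furthest of all entries, with 379 and 425 RPM in Ago3KD, against 5132 and 5333 RPM in LucKD (-3.70 ± 0.08, limma adjusted p = 2.22e-33). Of the other large falls, BmTE_RM1-267 had 7.27 and 12.9 RPM in Ago3KD, against 60.8 and 86.8 RPM in LucKD (-2.78 ± 0.19) and BmTE_RM1-394 had 14.2 and 14.2 RPM in Ago3KD, against 83.2 and 82.8 RPM in LucKD (-2.47 ± 0.18).

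Unclassified entries gave 11 of the 15 largest rises at a mean of at least 10 RPM. They also made up 121 of all 169 rises and 613 of the 1004 tested entries. BmTE_RM1-626 had 136 and 124 RPM in Ago3KD, against 3.75 and 8.51 RPM in LucKD (4.29 ± 0.21, limma adjusted p = 1.13e-20). BmTE_RM6-1786 had 598 and 570.4 RPM in Ago3KD, against 134 and 152 RPM in LucKD (2.03 ± 0.11) and BmTE_RM6-7117 had 267 and 268 RPM in Ago3KD, against 76.8 and 64.1 RPM in LucKD (1.92 ± 0.13). For all of these both Ago3KD libraries lay above both LucKD libraries, as the rule for naming them required.

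The remaining classes are small. Of 7 DIRS entries, retroelements that integrate with a tyrosine recombinase, 3 fell and 2 rose. Both rises were lost when single libraries were left out, while all 3 falls held. One of the rises, DIRS-1_BM, had 1.53 and 3.21 RPM in Ago3KD, against 0 and 0.567 RPM in LucKD. BmTE_RM1-288 had 94.2 and 79.4 RPM in Ago3KD, against 334 and 328 RPM in LucKD (-1.92 ± 0.10) and BmTE_RM1-274 had 112 and 96.9 RPM in Ago3KD, against 371 and 340.2 RPM in LucKD (-1.76 ± 0.10), the most abundant of the class in LucKD. The positive DIRS median of 0.63 stood beside a class total of 0.0278 and 0.0259% in Ago3KD, against 0.0813 and 0.0757% in LucKD. Of 11 entries listed as markers of the W chromosome 4 were tested and 2 fell, or 1 with TMM scaling. W-Sakura had 62.8 and 61.5 RPM in Ago3KD, against 181 and 197 RPM in LucKD (-1.59 ± 0.10).

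Ago3 knockdown was also set directly against Mael knockdown, which shares no library with it. Siwi-bound small RNA was higher in Ago3KD than in MaelKD for 318 of 1004 entries (31.7%) and lower for 208 (20.7%). That split rested on the scaling, with 201 higher and 263 lower under TMM scaling and 545 and 130 when each library was scaled to its transposon total. These differences hold the changes of both knockdowns, and MaelKD against LucKD, as deposited, had 118 entries higher and 446 lower. That contrast was not fitted under other scalings, so how far its split rests on the scaling was not tested. Of the 318, 125 were higher in Ago3KD than in LucKD, 67 were lower and 126 were not called. Of the 208, 185 were lower in Ago3KD than in LucKD, 1 was higher and 22 were not called. Abundant entries were mostly lower: of 69 entries over 1000 RPM, 51 were below MaelKD and 16 above. With TMM scaling 53 were below and 11 above, and with scaling to the transposon total 41 and 21. Among the 374 entries between 1 and 10 RPM, 82 were above MaelKD and 7 below. Both are smaller shares than the 31.7% and 20.7% over all entries. With TMM scaling 53 of these low entries were above and 12 below, and with scaling to the transposon total 175 and 3. All 3 BMC1 entries were below, with BMC1-Abe at 833 and 882 RPM in Ago3KD, against 6767 and 7025 RPM in MaelKD (log2 difference -3.01 ± 0.07, limma adjusted p = 6.33e-31). W-Sakura was at 62.8 and 61.5 RPM, against 1183 and 1224 RPM (-4.25 ± 0.10). Bmmar6 was at 1061 and 1071 RPM, against 4535 and 4590.1 RPM (-2.10 ± 0.07), and BmRT3 at 4366 and 4439 RPM, against 24585 and 25346 RPM (-2.50 ± 0.07). Against LucKD, as deposited, Bmmar6 was not called in Ago3KD (0.02) and was higher in MaelKD (2.11). Pao was above, at 78104 and 84959.6 RPM in Ago3KD, against 33511 and 33156 RPM in MaelKD (1.29 ± 0.07).

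SINEs were above MaelKD in 14 of 20 entries and below in 2, with 7 above and 2 below under TMM scaling. Mariners were below in 10 of 15 and above in none, with 7 below and 4 above when scaled to the transposon total.

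RNA was not measured after Ago3 knockdown in the libraries used here, but the RNA table gives the response of the same entries to knockdown of Siwi itself. Of the entries tested for small RNA, 453 also had a mean RNA level of at least 1 RPKM (reads scaled to length and to library size), and RNA of 118 of them was higher in SiwiKD than in LucKD (26.0%, and 24.3% over all 490 entries tested for RNA, limma). Of 208 entries with less Siwi-bound small RNA after Ago3 knockdown, 71 had higher RNA after Siwi knockdown (34.1%). The share was 14 of 91 (15.4%) for entries with more small RNA and 33 of 154 (21.4%) for those not called. The count of 71 was 44 without LucKD RNA replicate 1. The share over all entries in that setting is not given here, so this count alone does not show whether the contrast held. Across the 453 entries, which share libraries and may share reads, the small RNA change correlated weakly with the RNA change (Spearman's rho = -0.19, Pearson's r = -0.15). Entries that fell also had more small RNA reads, with a median of 100.3 RPM, against 17.9 RPM in those that rose and 5.76 RPM in those not called, and the part of this in the counts was not tested.

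Some elements with less small RNA had higher RNA after Siwi knockdown, 3 had lower RNA, and others did not pass the test. L1Bm was among those with lower RNA, with 9.56 and 7.92 RPKM in SiwiKD, against 12.9 and 15.3 RPKM in LucKD (RNA log2 change -0.63 ± 0.19, limma adjusted p = 0.0145). LTR-2_BM-I had 396 and 431 RPKM in SiwiKD, against 101 and 108 RPKM in LucKD (RNA log2 change 1.97 ± 0.20), and both of its small RNA values in Ago3KD were lower than in LucKD. Noguchi had RNA of 76.9 and 78.0 RPKM in SiwiKD, against 17.1 and 23.6 RPKM in LucKD (1.89 ± 0.19), and Mariner-7_BM had RNA of 15.9 and 12.5 RPKM in SiwiKD, against 5.09 and 5.73 RPKM in LucKD (1.24 ± 0.20). In contrast the abundant Jockey entry BmTE_RM6-18, with the largest loss in points of the library (-1.17), had RNA of 6.72 and 5.36 RPKM in SiwiKD, against 4.89 and 5.97 RPKM in LucKD, which did not pass the test (adjusted p = 0.668). R1Bm had RNA of 50.4 and 40.3 RPKM in SiwiKD, against 58.4 and 53.7 RPKM in LucKD (adjusted p = 0.243). Pao, whose small RNA was higher in Ago3KD, had RNA of 81.6 and 68.3 RPKM in SiwiKD, against 75.9 and 94.5 RPKM in LucKD (adjusted p = 0.55).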

How the data were processed

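Small RNA bound to tagged Siwi and, in separate libraries, RNA were measured in BmN4 cells, with 2 libraries per group. The deposited small RNA table gives RPM and the deposited RNA table RPKM per transposon entry. Per the submitters' processing notes, cutadapt 3.1, Trim Galore, Bowtie 1.3.0, STAR 2.7.9a, SAMtools and bedtools were used. Genome build, strand and the treatment of reads that match several entries are not given in these sources. All small RNA values were whole multiples of 1 read within 0.001 reads, which gave the depths. With 3 reads as the limit of detection, the floor was 0.624 to 1.70 RPM, covering counting error only.

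Entries were tested with limma 3.58.1 (R 4.3.3; moderated with a trend) on log2(RPM + 1) over the 6 small RNA libraries, and on log2(RPKM + 1) over the 6 RNA libraries for entries with a mean of at least 1 RPKM, each with Benjamini-Hochberg adjustment over all tested entries and a threshold of 0.05. The added 1 understates the change of low entries. Errors after ± are standard errors of the log2 change. Alternatives were other scalings, pseudocounts and filters, leaving out libraries, a replicate block, and edgeR 4.0.16 and DESeq2 1.42.0 on the recovered reads. Shares of a library were compared by the exact permutation test.

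The entries and lists were chosen with earlier results of these data known. Entries named were the 15 largest rises and 15 largest falls at a mean of at least 10 RPM, the 10 highest in LucKD, those with a name of their own, and in each superfamily with at least 5 tested entries the highest and the most changed. From these, examples were taken for the text, and exceptions are marked.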

Additional observations from a re-analysis of the deposited data

How the results depend on the processing

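Against LucKD, the 169 rises became 262 with TMM scaling, 285 by edgeR with TMM and 105 at a mean of at least 10 RPM (630 entries tested), and the 408 falls became 245 by DESeq2. Against MaelKD, the 318 higher entries became 201 with TMM scaling, 195 by edgeR with TMM, 140 by DESeq2 and 545 when scaled to the transposon total, which gave 130 lower entries in place of 208. Leaving out 1 library gave 494 to 513 calls against LucKD (121 to 136 higher, 364 to 385 lower) and 449 to 512 against MaelKD (263 to 323 higher, 181 to 191 lower). Without the 10 most abundant entries the share differences were -8.41 points for all transposons, -3.22 for LINEs, -1.87 for LTR elements, -0.855 for DNA transposons and -2.32 for entries with no class. As shares of transposon reads they were -10.5 for LINEs, 10.7 for LTR elements, 0.0408 for SINEs and 1.33 for entries with no class. Leaving out 1 library kept the sign of every class in this comparison, from -7.11 to -5.83 points for all transposons and from 0.786 to 1.95 for LTR elements. The 71 entries with higher RNA became 44 to 76 without 1 RNA library and 46 with small RNA calls under TMM scaling, both chosen after seeing the data. Falls themselves were fewer under TMM scaling, 295 in place of 408 over all tested entries. For entries that were not called, leaving out 1 library moved BmRT2 between -0.0812 and 0.0863 (-0.0244 without LucKD replicate 1) and YAMATO_BM between -0.0140 and 0.0827 on the log2 scale. Both were called as rises under 5 alternatives, TMM, median-ratio and transposon-total scaling, edgeR with TMM and DESeq2, with BmRT2 at 0.237 to 0.326 and YAMATO_BM at 0.269 to 0.356. The causes were not tested.

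Across entries, deviations of same-numbered libraries correlated at -0.00885 between Ago3KD and LucKD and 0.0428 between Ago3KD and MaelKD. The labels do not say what the replicate numbers mark, so whether same-numbered libraries were prepared together is not known. With a replicate block the calls were 169 higher and 410 lower against LucKD, and 320 and 208 against MaelKD. Depth limits the entries near 1 RPM, where 1 read was worth up to 0.567 RPM.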
